A study of Mus musculus with 12 samples.

Results

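The genes described here encode the lysosome and the autophagy machinery that feeds it. They are 33 genes listed by function: 9 cathepsins and protease partners, 7 glycan hydrolases, 6 enzymes and helper proteins of lipid breakdown, 5 proteins of the lysosomal membrane, 3 subunits of the proton pump, and 3 genes of autophagy or of its control. All 33 were found among the 55401 genes of the count table, and all 33 passed the filter on low counts that left 13205 genes for testing. The list was set by gene name and function, with earlier results of these data known.

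RNA sequencing was carried out on whole liver from 12 female mice at 15 weeks of age, with 6 livers per group. The iTgMir483 mice carried a Tet-off transgene for the microRNA gene Mir483, inserted at the Rosa26 locus on a C57BL/6J background. Crossing to CMV-Cre mice, a deleter strain that acts in all tissues, had removed the selection cassette, so neither the transgene nor its activation was limited to one liver cell type. The mothers had received doxycycline in the drinking water through pregnancy, which silences the transgene, and its withdrawal at birth let Mir483 be expressed until the livers were taken. Control mice were littermates of the same sex and age, which had shared the exposure to doxycycline in the womb, and their alleles are not given further by the labels.

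Lysosomes are acidic organelles in which hydrolases digest material delivered by endocytosis, phagocytosis and autophagy. Most of the hydrolases are tagged with mannose 6-phosphate in the Golgi and carried to the lysosome by receptors, and a vacuolar proton pump keeps the lumen acidic. In liver, hepatocytes use autophagy to recycle organelles and lipid droplets, and the resident macrophages, the Kupffer cells, are rich in lysosomes because they clear particles and dying cells from the blood. The transcription factor TFEB is known to bind a promoter element built around the letters CACGTG and to drive many lysosomal genes together. Whole liver mixes these cells, so that more cells of a type and more RNA per cell cannot be told apart.

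The promoters of 4 members are printed first, because they show that element where it was present and a promoter of a gene that changed but lacked it. Each is the RefSeq window from 250 bases before to 50 bases after a transcription start, 5′ to 3′ on the strand of the gene, on GRCm38.p6. Capitals mark TCACGTGA in Ctsa (chr2:164833523-164833822, plus strand) and Gla (chrX:134600956-134601255, minus strand), and the shorter CACGTG in Lamp1 (chr8:13158911-13159210, plus strand). The window of Lipa (chr19:34527425-34527724, minus strand) held neither.
Ctsa promoter: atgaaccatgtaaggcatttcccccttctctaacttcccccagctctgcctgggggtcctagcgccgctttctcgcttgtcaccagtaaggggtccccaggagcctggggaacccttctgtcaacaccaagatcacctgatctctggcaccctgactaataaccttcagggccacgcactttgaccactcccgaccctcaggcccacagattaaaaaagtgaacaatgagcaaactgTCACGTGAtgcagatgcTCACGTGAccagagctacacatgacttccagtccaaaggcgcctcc
Gla promoter: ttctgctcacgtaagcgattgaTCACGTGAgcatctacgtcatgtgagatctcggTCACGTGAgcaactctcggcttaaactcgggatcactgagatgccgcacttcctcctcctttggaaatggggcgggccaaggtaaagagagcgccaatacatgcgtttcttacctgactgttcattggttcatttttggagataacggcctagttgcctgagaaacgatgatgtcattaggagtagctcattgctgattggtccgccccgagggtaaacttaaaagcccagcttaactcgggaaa
Lamp1 promoter: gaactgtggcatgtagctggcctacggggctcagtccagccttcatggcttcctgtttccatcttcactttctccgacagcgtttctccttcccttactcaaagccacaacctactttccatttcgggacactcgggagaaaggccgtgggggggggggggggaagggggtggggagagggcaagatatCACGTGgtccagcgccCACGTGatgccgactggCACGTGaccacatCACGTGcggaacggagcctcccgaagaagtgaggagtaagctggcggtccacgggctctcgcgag
Lipa promoter: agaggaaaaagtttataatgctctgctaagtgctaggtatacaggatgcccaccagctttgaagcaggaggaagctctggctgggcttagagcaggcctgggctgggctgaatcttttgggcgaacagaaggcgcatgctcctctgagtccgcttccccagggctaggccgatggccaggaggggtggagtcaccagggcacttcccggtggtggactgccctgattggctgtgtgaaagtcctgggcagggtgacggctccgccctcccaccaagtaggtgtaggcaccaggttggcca

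RefSeq windows were found for 29 of the 33 members, 33 windows in all, and Asah1, Ctsb, Ctsh and Atp6v0d2 had no entry. CACGTG, which reads the same on both strands, was present in 10 of the 33 windows (30.3%), against 7.15% of the 32851 windows of all genes. The longer TCACGTGA, which contains CACGTG, was present in 6 windows (18.2%), against 0.974% of all windows. The 10 members with CACGTG were Atp6v0d1, Atp6v1a, Ctsa, Ctsd, Ctsl, Gaa, Gla, Glb1, Lamp1 and Mcoln1, and the first 4 of these, with Gla and Mcoln1, held the longer form. None of these 10 was called in the comparison of the livers given next. Of all genes tested, 8.41% were called higher and 2.73% lower, so 10 genes are too few to tell 0 calls from that background. Their log2 fold changes had a median of 0.01 (range -0.45 to 0.23), and those of the 19 members without it had a median of -0.05 (range -0.49 to 0.87).

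The comparison of iTgMir483 with Control livers asks how the lysosomal programme stood after continued expression of Mir483 from birth. A gene was called when its adjusted p (edgeR quasi-likelihood test, Benjamini-Hochberg over all 13205 genes) was below 0.05 and its fold change was over 1.5. Of the 33 members, 5 were higher in iTgMir483 livers and 0 were lower. The 5 were the acid lipase gene Lipa, the acid ceramidase gene Asah1, the β-hexosaminidase subunit gene Hexa, and the cathepsin genes Ctss and Ctsk. Their share of the members, 15.2%, stood beside 8.41% of all genes called higher, and the background for lower calls was 2.73%. With 33 genes, 5 calls higher and 0 lower are too few to tell from that background. By adjusted p alone, 7 members were higher (21.2%), against 11.3% of all genes, and 1 was lower, against 7.33% of all genes. The 2 additional higher members were Ctsb and Npc2, and the lower member was Lamp2.

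The members did not move as one set. Their median log2 fold change was -0.02, with 16 above 0 and 17 below, beside a median of 0.01 over all genes tested. The summed level of the 33 members was 6535 ± 329 CPM (counts scaled to a library of 1000000, SD, n = 6) in Control livers and 6490 ± 713 CPM (n = 6) in iTgMir483 livers. Without a model, 4 members had all 6 iTgMir483 values above all 6 Control values (12.1%, against 5.09% of all genes), and 0 had all 6 below (2.83% of all genes). The 4 were Lipa, Asah1, Hexa and Ctsk.

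**Figure D1:**
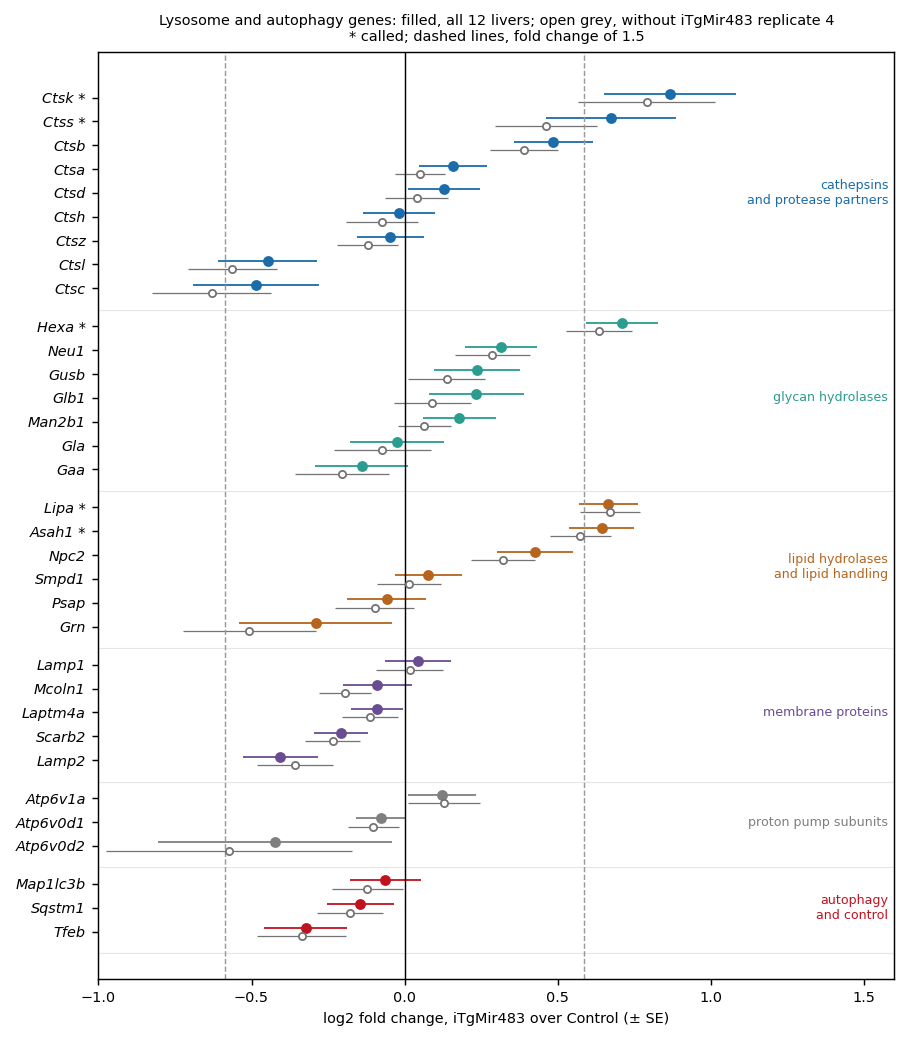
Log2 fold change, iTgMir483 over Control, of the 33 members by class. Filled points are the fit on all 12 livers with bars of 1 standard error, open grey points are the fit without iTgMir483 replicate 4, stars mark called genes, and dashed lines mark a fold change of 1.5. The 5 called genes lie on the higher side, and the other 28 have log2 fold changes of at most 0.49 in size.

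One library stood apart among the iTgMir483 livers and touches much of what follows. The Mir483 gene itself had 0 counts in all 6 Control livers and 318 to 761 counts in the iTgMir483 livers, which matches the labels, and library totals were 12244123 to 30431286 counts in Control and 12415140 to 15846175 in iTgMir483 livers. Hepatocyte genes such as Alb, at a mean of 111900 CPM in Control and 76070 CPM in iTgMir483 livers, were by far the most abundant of the cell markers. Of the 6 iTgMir483 livers, replicate 4 was highest for 22 of the 33 members (66.7%), against 22.4% of all genes tested. The other 5 livers were highest for 0 to 5 members each. iTgMir483 replicate 4 was the highest of all 12 livers for 16 members (48.5%), against 16.2% of all genes. The summed macrophage markers, 20 genes, were also highest in this liver, at 2318 CPM against 780.3 to 1239 CPM in the other 5 iTgMir483 livers and 495.0 to 710.2 CPM in the Control livers.

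Without iTgMir483 replicate 4, 3 members were called higher (9.09%, against 7.34% of all genes) and 1 was called lower (background 2.7%). Lipa, Hexa and Ctsk kept the call. Asah1 fell under the fold threshold and Ctss missed the adjusted p, while Ctsc, which encodes a dipeptidyl peptidase, became the lower member. The median log2 fold change of the members was then -0.07, with 16 above 0 and 17 below, beside 0.01 over all genes.

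**Figure D2:**
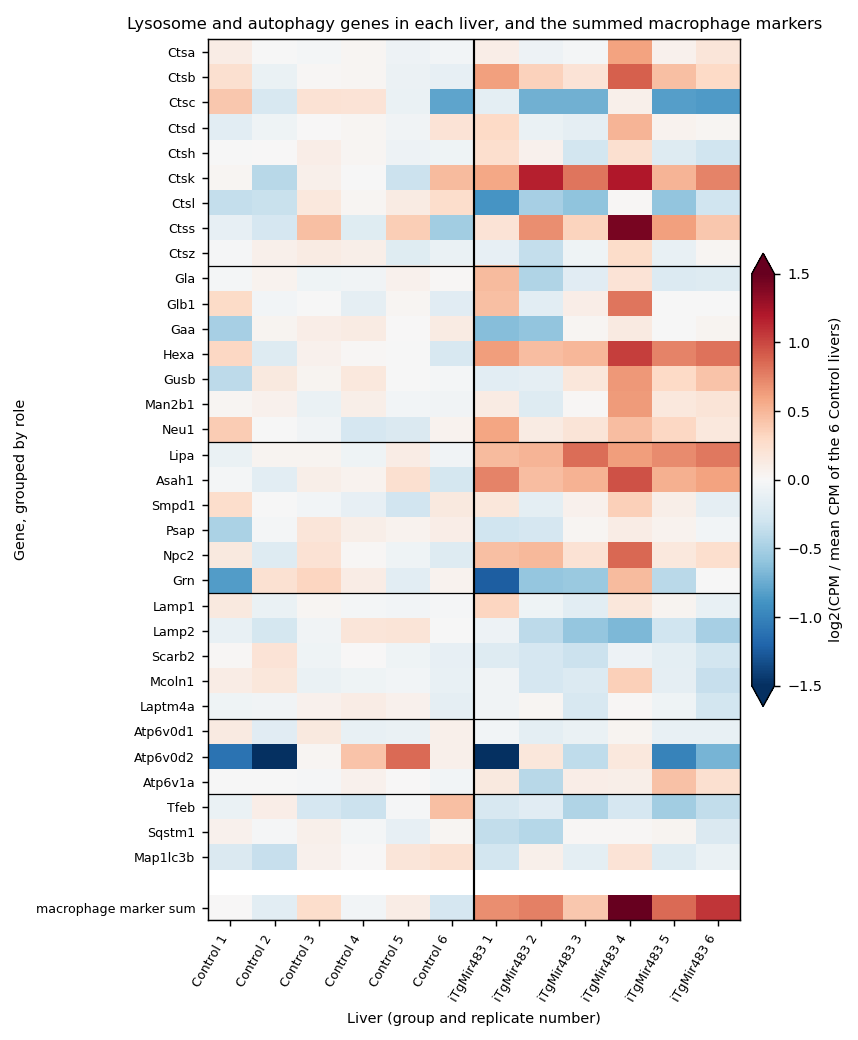
Log2 ratio of each liver's CPM to the mean of the 6 Control livers, for the 33 members by class and the summed macrophage markers, with colours ending at 1.5 in either direction. The column of iTgMir483 replicate 4 is the highest of the iTgMir483 columns in 22 of the 33 members and in the macrophage sum.

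Most macrophage markers rose in iTgMir483 livers, with or without that liver. Of the 20 markers, 17 were tested and 14 were called higher, beside the 8.41% of all genes, with a median log2 fold change of 1.10. Without iTgMir483 replicate 4, 12 were called higher, beside 7.34% of all genes. In 9 markers (52.9% of the 17) all iTgMir483 values were above all Control values, beside 5.09% of all genes. None of the 20 was at 0 in all livers. The Kupffer cell receptor gene Clec4f went from a mean of 107.1 to 177.0 CPM, Csf1r, the receptor of the macrophage growth factor, from 60.2 to 127.9 CPM, and Cd68, a lysosomal membrane protein of macrophages, from 9.72 to 15.8 CPM, all with adjusted p of 0.00814 or below in edgeR. The 3 tested markers that were not called were Vsig4, Cd14 and Ccr2. Vsig4, another Kupffer cell receptor, missed the threshold at 35.7 and 52.1 CPM (adjusted p = 0.0527 in edgeR), Cd14, a receptor for bacterial lipopolysaccharide, had 4.10 and 9.67 CPM (adjusted p = 0.0674), and Ccr2, found on monocytes, had 1.08 and 0.713 CPM (adjusted p = 0.108). The part of macrophage RNA in the results below was not tested.

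Markers of other cells that the tissue holds were read in the same way. The summed bile duct markers were 20.9 to 46.1 CPM in Control and 60.7 to 89.1 CPM in iTgMir483 livers. Most of that sum was Spp1, at a mean of 25.6 CPM in Control and 63.6 CPM in iTgMir483 livers. Spp1, Krt7 and Epcam were called higher, 3 of 5 genes, beside 8.41% of all genes called higher and 2.73% called lower. Krt19 (log2 fold change 0.10, edgeR adjusted p = 0.825) and Sox9 (0.26, adjusted p = 0.425) were not called. Neutrophil markers were scarce, with 2 of 6 tested and both called higher (S100a8 and S100a9), and a sum of 0.752 to 2.3 CPM in Control and 2.58 to 21.4 CPM in iTgMir483 livers. Among lymphocyte markers, 3 of 7 were tested and Cd4 was called higher, and 0 of the 7 stellate cell and 0 of the 6 sinusoidal endothelial markers were called in either direction. The summed hepatocyte markers ranged from 127300 to 173600 CPM in Control and from 72120 to 142200 CPM in iTgMir483 livers, with Fgb called higher and Cps1 called lower among 7 genes.

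Lipid breakdown held the member with the smallest adjusted p. Lipa (chr19:34492318-34527474 on GRCm38) encodes lysosomal acid lipase, which hydrolyses the cholesteryl esters and triglycerides that reach the lysosome, and its promoter is printed above. In Control livers Lipa stood at 252.3, 276.8, 276.5, 258.5, 291.6 and 260.0 CPM. In iTgMir483 livers it stood at 375.5, 382.5, 480.9, 416.7, 441.9 and 466.2 CPM. Every iTgMir483 liver was above every Control liver, and iTgMir483 replicate 4 was in the middle of its group. The mean went from 269.3 ± 14.8 to 427.3 ± 43.4 CPM (SD, n = 6 each), a log2 fold change of 0.67 (SE 0.10, 1.59-fold, edgeR adjusted p = 0.000688), and it was 0.67 without iTgMir483 replicate 4.

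Asah1 (chr8:41340197-41374773) encodes acid ceramidase, which splits ceramide into sphingosine and a fatty acid. Its Control values were 30.2, 27.6, 32.7, 31.8, 36.2 and 25.6 CPM, and its iTgMir483 values were 51.5, 42.3, 43.9, 59.3, 44.4 and 46.4 CPM. The groups were separate, with iTgMir483 replicate 4 the highest of all 12 livers. The log2 fold change was 0.64 (SE 0.11, 1.56-fold, edgeR adjusted p = 0.0015), and without that liver it was 0.57 with an adjusted p of 0.00251, which left it under the fold threshold.

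Npc2 (chr12:84754562-84773152) encodes the small lumenal protein that hands cholesterol to NPC1 for export. It passed the adjusted p alone, with 72.7 ± 8.82 CPM in Control and 97.6 ± 18.7 CPM in iTgMir483 livers (n = 6 each), and a log2 fold change of 0.43 (SE 0.12, edgeR adjusted p = 0.0278). The groups overlapped, and without iTgMir483 replicate 4, at 132.0 CPM the highest liver, the log2 fold change was 0.32 and the adjusted p 0.0515. The other 3 members of the class did not pass the test. Smpd1, the acid sphingomyelinase, had a log2 fold change of 0.08 (adjusted p = 0.665 in edgeR). Psap, the precursor of the saposins that present sphingolipids to their hydrolases, had -0.06 (adjusted p = 0.785).

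Grn, which encodes progranulin, a secreted and lysosomal protein made largely by macrophages in many tissues, had 415.3 ± 102.1 CPM in Control and 339.8 ± 138.5 CPM in iTgMir483 livers (n = 6 each). Its iTgMir483 values were 176.2, 277.3, 282.0, 576.2, 314.3 and 412.5 CPM, and its Control values ran from 233.1 to 517.5 CPM. The highest value of all was again iTgMir483 replicate 4. The log2 fold change was -0.29 (edgeR adjusted p = 0.448) with that liver and -0.51 (adjusted p = 0.126) without it.

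Among the 7 glycan hydrolases, Hexa was called higher and no other passed the test. Hexa (chr9:59539540-59565109) encodes the α subunit of β-hexosaminidase, which removes the terminal sugar of ganglioside GM2. Hexa had 63.6, 44.9, 53.7, 51.9, 51.3 and 43.5 CPM in Control livers, and 79.4, 70.9, 72.5, 105.7, 86.3 and 90.7 CPM in iTgMir483 livers. The groups did not overlap, and iTgMir483 replicate 4 was the highest. Its mean went from 51.5 ± 7.19 to 84.3 ± 13.0 CPM, a log2 fold change of 0.71 (SE 0.12, 1.64-fold, edgeR adjusted p = 0.0015). Without that liver it was 0.63 (adjusted p = 0.00233).

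A gene that works with Hexa was read from the further list described below. Gm2a encodes the activator protein that lifts GM2 to the enzyme, and it was called higher too, at 62.2 ± 18.0 and 101.0 ± 13.7 CPM (n = 6 each, log2 fold change 0.70, edgeR adjusted p = 0.00812).

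The remaining glycan hydrolases had log2 fold changes from -0.14 to 0.32. Neu1, the lysosomal sialidase, came nearest to the threshold, with 48.0 ± 8.08 CPM in Control and 59.8 ± 7.87 CPM in iTgMir483 livers (n = 6 each, edgeR adjusted p = 0.0753). Gusb (β-glucuronidase) had a log2 fold change of 0.24, Glb1 (β-galactosidase) 0.23 and Man2b1 (α-mannosidase) 0.18, with adjusted p from 0.256 to 0.313. Gaa, the acid α-glucosidase that degrades glycogen, had -0.14 and Gla, the α-galactosidase, -0.02. The class as a whole had a median of 0.23, and its summed level was 391.4 to 421.2 CPM in Control livers and 364.9 to 590.7 CPM in iTgMir483 livers, with iTgMir483 replicate 4 at the top.

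Cathepsins were split in direction. Of the 9 genes, 5 had a log2 fold change above 0 and 4 below, and their summed level had the same mean in both groups within its spread, 2423 ± 143 CPM in Control and 2426 ± 402 CPM in iTgMir483 livers (n = 6 each). The iTgMir483 range was 2100 to 3221 CPM, with iTgMir483 replicate 4 at the upper end. That liver was the highest of its group for 8 of the 9 genes. Ctsb and Ctsl, the most abundant of the 9 in CPM, differed in opposite directions within the summed level. Mean Ctsb was 537.4 CPM in Control and 752.9 CPM in iTgMir483 livers. Mean Ctsl was 869.9 CPM in Control and 638.0 CPM in iTgMir483 livers.

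Ctss (chr3:95526786-95556403) encodes cathepsin S, a cysteine protease of macrophages and other antigen-presenting cells that cuts the invariant chain of MHC class II. It stood at 31.2, 28.5, 46.4, 29.8, 43.6 and 23.5 CPM in Control livers, and at 39.0, 54.8, 42.8, 90.9, 51.8 and 44.8 CPM in iTgMir483 livers. In 3 iTgMir483 livers it was within the Control range, and iTgMir483 replicate 4 was far above the rest. The log2 fold change was 0.67 (SE 0.21, 1.6-fold, edgeR adjusted p = 0.0388). It was 0.46 (adjusted p = 0.0754) without that liver, and the call was also lost when any of 4 Control livers or 2 other iTgMir483 livers was left out, with adjusted p from 0.056 to 0.0853 over the 7 such fits.

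Ctsk (chr3:95499256-95509362), the neighbour of Ctss on the chromosome, encodes cathepsin K, a collagen-degrading protease best known from osteoclasts. Its level was low, with 11 to 29 counts per library. The Control values were 0.941, 0.690, 0.976, 0.923, 0.737 and 1.28 CPM, and the iTgMir483 values were 1.38, 2.07, 1.62, 2.13, 1.32 and 1.55 CPM. The groups were separate, by 1.28 against 1.32 CPM at the nearest livers. The log2 fold change was 0.87 (SE 0.21, 1.82-fold, edgeR adjusted p = 0.0127), the largest of the members, and 0.79 (adjusted p = 0.0278) without iTgMir483 replicate 4. Of the 5 markers of osteoclast type cells, Calcr was at 0 in every liver, Dcstamp reached at most 1 count and Oscar at most 6 counts. Ocstamp had a mean of 1.19 CPM in Control and 1.62 CPM in iTgMir483 livers (log2 fold change 0.48, edgeR adjusted p = 0.436), and Acp5 had a mean of 93.2 CPM in Control and 100.8 CPM in iTgMir483 livers (adjusted p = 0.667), a gene that is also on the further list below.

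Ctsb (chr14:63122462-63145923) encodes cathepsin B, the general cysteine protease of the lysosome, and passed the adjusted p without reaching the fold threshold. It stood at 634.8, 499.9, 544.0, 549.6, 504.1 and 492.2 CPM in Control livers, and at 825.0, 680.8, 618.8, 997.6, 733.3 and 661.9 CPM in iTgMir483 livers. In all but 1 pairing of a Control with an iTgMir483 liver the latter was higher, replicate 1 of Control lying above replicate 3 of iTgMir483. The log2 fold change was 0.49 (SE 0.13, 1.40-fold, edgeR adjusted p = 0.0181), and 0.39 (adjusted p = 0.0291) without iTgMir483 replicate 4. Exons of Ctsb overlap those of Fdft1, a gene of sterol synthesis on the opposite strand, which had a mean of 1109 counts against 10050 for Ctsb.

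Ctsl and Ctsc had the largest differences towards lower levels, and neither passed the edgeR test over all 12 livers. Ctsl, the cathepsin L endopeptidase, had 869.9 ± 153.3 CPM in Control and 638.0 ± 142.0 CPM in iTgMir483 livers (n = 6 each, log2 fold change -0.45, SE 0.16, edgeR adjusted p = 0.068). DESeq2 on the same 12 livers gave -0.46 with an adjusted p of 0.0263, also under the fold threshold. Its Control values ran from 677.7 to 1047.0 CPM, and 4 of the 6 iTgMir483 livers were below that range, iTgMir483 replicate 4 being the highest of its group at 883.1 CPM. Without that liver the log2 fold change was -0.56 and the adjusted p 0.019, past the adjusted p but still under the fold threshold.

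Ctsc, which activates the serine proteases of immune cells, had 83.1 ± 22.3 and 59.4 ± 17.5 CPM (n = 6 each, log2 fold change -0.49, SE 0.21, edgeR adjusted p = 0.114). Without iTgMir483 replicate 4, at 87.8 CPM the highest of its group, the log2 fold change was -0.63 (adjusted p = 0.0414), and without Control replicate 6, at 48.2 CPM the lowest of its group, it was -0.61 (adjusted p = 0.041). The remaining cathepsins had log2 fold changes from -0.05 to 0.16 and adjusted p of 0.346 or above. They were Ctsa, the protective protein of Glb1 and Neu1, Ctsd, the aspartic protease, and the exopeptidases Ctsh and Ctsz.

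**Figure D3:**
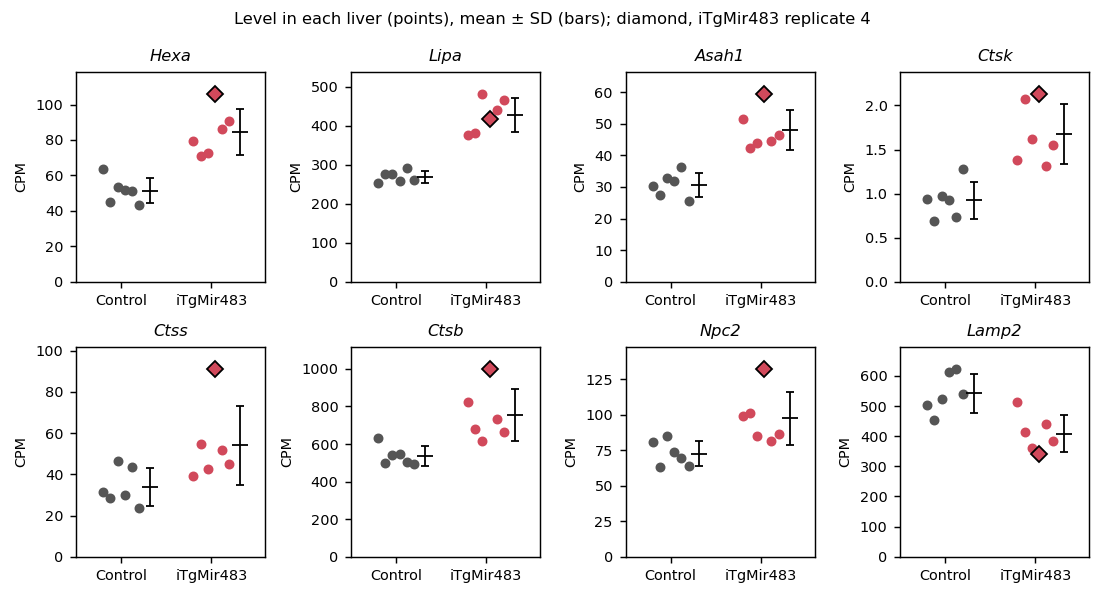
CPM of 8 members in each liver, Control and iTgMir483, with the mean and SD of each group, each panel on its own axis. The diamond is iTgMir483 replicate 4. Hexa, Lipa, Asah1 and Ctsk separate the groups, Ctss, Ctsb and Npc2 overlap, and Lamp2 lies lower in iTgMir483 livers with overlap.

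The 5 proteins of the lysosomal membrane had 0 calls and a median log2 fold change of -0.09. With 8.41% of all genes called higher and 2.73% lower, 5 genes are too few to tell 0 calls from the background. Lamp2 (chrX:38401357-38456454) encodes a major glycoprotein of the membrane that is needed for fusion with autophagosomes and, as one isoform, for chaperone-mediated autophagy. It stood at 502.7, 452.5, 522.8, 613.6, 621.9 and 538.6 CPM in Control livers, and at 512.1, 413.7, 361.5, 340.8, 441.9 and 383.7 CPM in iTgMir483 livers. In 5 of 6 iTgMir483 livers it was below every Control liver, and the exception was replicate 1. The log2 fold change was -0.41 (SE 0.12, 0.755-fold, edgeR adjusted p = 0.0334), past the adjusted p alone, and iTgMir483 replicate 4 was here the lowest liver. Without that liver it was -0.36 with an adjusted p of 0.0622.

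Lamp1, the sister glycoprotein, had 548.1 ± 31.9 and 565.0 ± 74.5 CPM (n = 6 each, log2 fold change 0.04, edgeR adjusted p = 0.81). Scarb2, the receptor that carries glucocerebrosidase to the lysosome, had 225.4 ± 18.6 and 195.3 ± 12.5 CPM (log2 fold change -0.21, adjusted p = 0.114). Mcoln1, the calcium channel of the membrane, and Laptm4a, a small spanning protein, both had -0.09, with adjusted p of 0.621 and 0.493.

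The 3 pump subunits and the 3 autophagy genes had 0 calls, again too few genes to tell from the 8.41% called higher and 2.73% lower of all genes. Atp6v0d1, the d subunit found in most cells, had 65.2 ± 6.30 and 61.8 ± 3.08 CPM (n = 6 each, log2 fold change -0.08, edgeR adjusted p = 0.54). Its paralog Atp6v0d2, known from osteoclasts, kidney and macrophages, was lower and more spread, 3.11 to 17.9 CPM in Control and 3.42 to 11.1 CPM in iTgMir483 livers (log2 fold change -0.42, adjusted p = 0.47). Atp6v1a, the catalytic subunit, had a log2 fold change of 0.12 (adjusted p = 0.476).

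Tfeb, the regulator named above, had 9.41, 10.8, 8.44, 8.04, 9.91 and 13.8 CPM in Control livers, and 8.52, 8.92, 7.38, 8.43, 7.02 and 7.82 CPM in iTgMir483 livers. The groups overlapped, with a log2 fold change of -0.32 (SE 0.14, edgeR adjusted p = 0.11). Sqstm1, the cargo receptor p62, had 394.2 ± 20.3 and 356.7 ± 51.1 CPM (n = 6 each, log2 fold change -0.14, adjusted p = 0.375). Map1lc3b, whose product LC3B coats the autophagosome, had 108.2 ± 16.5 and 103.6 ± 13.3 CPM (log2 fold change -0.06, adjusted p = 0.747). These are mRNA levels, and the flow of material through autophagy was not measured.

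Levels between genes can be compared only per length of exon. On CPM per kilobase of exon, Psap was the highest member in both groups (271.6 in Control and 260.7 in iTgMir483 livers), followed in Control livers by Lamp1 at 204.9, Ctsz at 173.1 and Ctsl at 134.1. The called genes were of middle to low level, with Lipa at 39.7 in Control and 63.0 in iTgMir483 livers, Hexa at 25.8 and 42.2, Ctss at 24.9 and 39.8, and Asah1 at 9.05 and 14.2. Ctsk was the lowest member at 0.612 and 1.11, below Gla at 1.52 in Control livers.

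Each member was also tested alone by a two-sided exact permutation test of its mean log2(CPM + 0.1) over the 924 ways to split 12 livers into 6 and 6. Lipa, Asah1, Hexa and Ctsk gave an exact permutation p of 0.0022, the smallest that this design allows. The exact permutation p was 0.0043 for Ctsb and Scarb2, and 0.0065 for Npc2 and Lamp2. It was 0.022 for Ctss, 0.024 for Ctsl, 0.026 for Tfeb and 0.028 for Neu1. These values are not adjusted for the 33 members.

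A further 96 genes of the same pathways were read beside the members, named by function as well and also with earlier results known. Of these, 94 were tested because Cpvl and Lamp5 had 0 counts in every liver. Of the 94, 8 were called higher (8.51%, beside the 8.41% of all genes) and 1 lower, and their median log2 fold change was -0.02, with 44 above 0 and 49 below. By class, 3 of 28 hydrolases, 4 of 19 membrane and sorting proteins, 0 of 15 pump subunits and 1 of 32 autophagy genes were called higher.

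Slc29a3, a nucleoside transporter of the lysosomal membrane, showed the largest change of the further genes. It stood at 5.90, 3.68, 3.63, 4.82, 6.83 and 4.39 CPM in Control livers, and at 15.7, 13.8, 19.0, 16.0, 19.7 and 24.2 CPM in iTgMir483 livers. Every iTgMir483 liver was above every Control liver, and iTgMir483 replicate 4 was in the middle of its group (log2 fold change 1.89, SE 0.18, edgeR adjusted p = 2.88e-05).

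Of the 94 further genes, 6 had all iTgMir483 values above all Control values (6.38%, beside the 5.09% of all genes), and Slc29a3 was one of them. Slc11a1, the metal transporter of the macrophage phagosome, went from 9.35 ± 1.89 to 21.3 ± 7.43 CPM (n = 6 each, log2 fold change 1.19, edgeR adjusted p = 0.00195), and Laptm5, a lysosomal membrane protein of blood cells, from 16.1 ± 1.91 to 33.2 ± 10.03 CPM (log2 fold change 1.05, adjusted p = 0.00109). Both are known as genes of macrophages, both were highest in iTgMir483 replicate 4, and their log2 fold changes without it were 0.98 and 0.87. Rragd, a Rag GTPase that brings the kinase mTORC1 to the lysosome, went from 2.34 ± 0.439 to 5.00 ± 1.13 CPM (log2 fold change 1.09, adjusted p = 0.00163), and iTgMir483 replicate 4 was the lowest of its group there.

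Pla2g15, the lysosomal phospholipase, went from 14.6 ± 2.20 to 25.4 ± 3.94 CPM (n = 6 each, log2 fold change 0.81, edgeR adjusted p = 0.00109). Lgmn, the endopeptidase that trims cathepsins, went from 68.3 ± 3.81 to 106.0 ± 38.4 CPM (log2 fold change 0.63, adjusted p = 0.022), and without iTgMir483 replicate 4, at 180.8 CPM, its log2 fold change was 0.41, under the fold threshold. Cd63, a tetraspanin of late endosomes, was called with overlapping groups (log2 fold change 0.99, adjusted p = 0.00488), as was Gm2a.

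The gene called lower was Mfsd8, a channel protein of the lysosomal membrane, at 10.8 ± 1.44 CPM in Control and 7.01 ± 0.690 CPM in iTgMir483 livers (n = 6 each, log2 fold change -0.62, edgeR adjusted p = 0.00292), with every iTgMir483 liver below every Control liver. Without Control replicate 5, or without iTgMir483 replicate 2, 0 of the further genes were called lower. By adjusted p alone 10 further genes were higher (10.6%, beside 11.3% of all genes) and 6 lower (6.38%, beside 7.33%), shares near the background. The 6 were Mfsd8, the pump genes Atp6ap2 (log2 fold change -0.44) and Atp6v0a2 (-0.37), the autophagy genes Rb1cc1 (-0.37) and Atg7 (-0.28), and the galactosylceramidase gene Galc (-0.51). The mannose 6-phosphate receptor Igf2r had 50.7 ± 6.68 and 75.0 ± 24.3 CPM (n = 6 each, adjusted p = 0.0543 in edgeR), with a log2 fold change of 0.63 and an adjusted p of 0.0414 without iTgMir483 replicate 4, and Npc1, the partner of Npc2, had 201.9 ± 23.1 and 190.7 ± 16.4 CPM (adjusted p = 0.602).

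**Figure D4:**
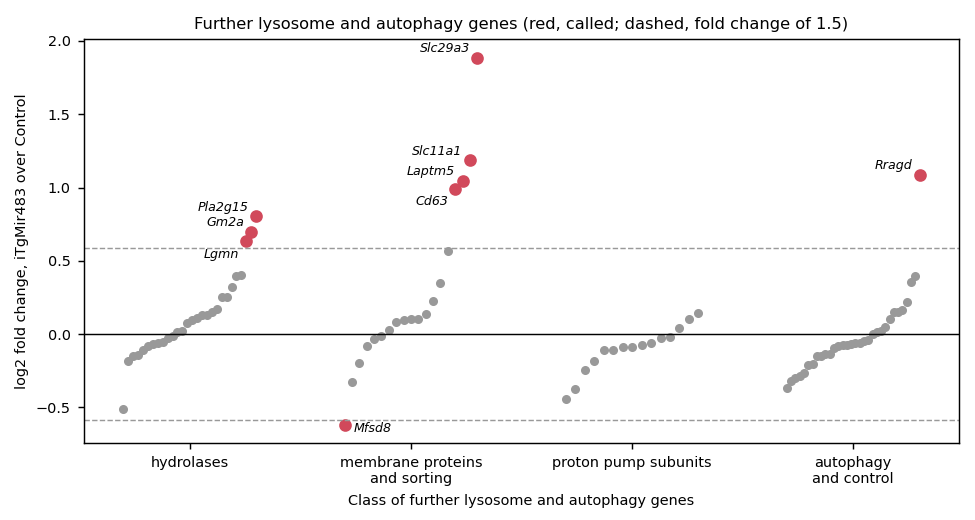
Log2 fold change, iTgMir483 over Control, of the 94 tested further lysosome and autophagy genes, 1 point per gene in 4 classes, with the 9 called genes in red and named. Pump subunits hold no called gene, and the highest point is Slc29a3 at 1.89.

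The seeds of the microRNAs made from Mir483 were searched in the longest annotated 3′ UTR of each gene, 182 to 4761 bases long in the members. The mature sequences are given with bases 2 to 8, the seed, in capitals.
mmu-miR-483-3p: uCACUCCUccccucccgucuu
mmu-miR-483-5p: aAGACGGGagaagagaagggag
The complement of the 3p seed, AGGAGTG, was present in 2 of the 33 members (6.06%), against 12.6% of the 12098 tested genes with such a UTR. The complement of the 5p seed, CCCGTCT, was present in 2 members (6.06%), against 3.26%. The 4 matches are printed in capitals with the bases around them, on GRCm38 and in that longest annotated 3′ UTR. Their order is Gaa (chr11:119273249-119273255, plus strand), Lamp2 (chrX:38420244-38420250, minus strand), Npc2 (chr12:84755862-84755868, minus strand) and Psap (chr10:60302230-60302236, plus strand). The matches of Gaa and Lamp2 lie well inside these genes, whose annotated 3′ ends are at 119285454 and 38401357. Other transcripts of Gaa and Lamp2 may lack them, and which transcripts the livers used was not measured.
Gaa, 3p seed match: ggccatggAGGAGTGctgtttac
Lamp2, 3p seed match: agttatatAGGAGTGgcagagat
Npc2, 5p seed match: agaccaacCCCGTCTacaaaatg
Psap, 5p seed match: cctgtcttCCCGTCTgccttgtt
Of these 4 genes, Lamp2 was lower and Npc2 higher by adjusted p alone, and Gaa and Psap did not pass the test. The 5 called members held neither match. A match is a description of letters, and binding was not measured.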

How the data were processed

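Livers of 6 Control and 6 iTgMir483 female mice at 15 weeks were sequenced as stranded poly(A) libraries on an Illumina NovaSeq6000. Alignment by the authors used STAR and GRCm38, and they deposited raw read counts per Ensembl gene, and the count column's strand setting is not given in the sources used here. Exons of 11 members overlap exons of another gene, so reads of Ctsb and Fdft1, Ctsa and Pltp, Lamp1 and Grtp1, Ctsz and Nelfcd, Map1lc3b and Zcchc14, or Glb1 and Tmppe may be shared.

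Symbols, positions on GRCm38 and exon lengths were taken from GENCODE M21. In edgeR 4.0.16 (R 4.3.3), genes were filtered with filterByExpr, scaled by TMM and tested by glmQLFit and glmQLFTest without covariates, with Benjamini-Hochberg adjustment over 13205 genes. Thresholds were an adjusted p of 0.05 and a fold change of 1.5. CPM are counts per 1000000 after TMM scaling, and each SE was derived as |log2 fold change|/√F from the F statistic. Members, lists and tests were chosen with earlier results of these data known. All members were named, with values in every liver for called members, and further genes were named when called. Alternatives were RLE, other filters, DESeq2 1.42.0, limma-voom (limma 3.58.1), a replicate block, a test against the fold of 1.5, and leaving out livers. Same-numbered livers correlated at 0.02516 to 0.4705, at most 0.1 in 4 of 6 pairs, so the numbers were not taken as pairs. Libraries totalled 12244123 to 30431286 counts, and no 2 of a group agreed within sampling noise (chi-square per gene at least 14.3). One gene of the further list is not reported here by name.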

Additional observations from a re-analysis of the deposited data

Results flagged for a closer look

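In 68 groups of 6 livers, the 33 members and the summed macrophage markers in each genotype, the gap of the highest or lowest liver to its neighbour was divided by the range of the group and compared with Dixon's critical value for 6 samples. Values above it were found in 6 groups, where chance gives about 1 in 20, or 3.4 of 68.

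iTgMir483 replicate 4 was the liver apart in 4 of the 6. Its summed macrophage markers were 2318 CPM, against 780.3 to 1239 CPM in the other 5 iTgMir483 livers (ratio 0.7017). Ctss stood at 90.9 CPM there, against 39.0 to 54.8 CPM (0.6953), Ctsa at 224.3 CPM, against 140.1 to 168.3 CPM (0.6655), and Mcoln1 at 48.3 CPM, against 29.9 to 36.4 CPM (0.6458). These 4 values come from one liver, and the part of macrophage RNA in the levels of the 3 genes was not tested.

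The other 2 were Control livers. Gaa stood at 92.8 CPM in Control replicate 1, against 131.9 to 142.7 CPM in the other 5 (0.7823). Atp6v1a stood at 54.1 CPM in Control replicate 4, the deepest library, against 50.4 to 51.7 CPM (0.6453).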

How the results depend on the processing

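The 5 members called higher remained 5 in number under RLE size factors, both other filters on low counts, DESeq2, limma-voom, the replicate block and without both replicate 1 livers. By adjusted p alone there were 7. A test against the fold of 1.5 itself called 0 members higher, 1 further gene higher and 0 lower, and 2 macrophage markers higher. Leaving out single livers gave 3 to 5 members higher, with 3 only without iTgMir483 replicate 4, and 0 to 1 lower, with 1 without that liver or without Control replicate 6. It gave 8 to 9 further genes higher and 0 to 1 lower, and 12 to 17 macrophage markers higher. By adjusted p alone, 1 member and 6 further genes were lower. The replicate block called 5 members higher and 0 lower, 7 further genes higher and 1 lower, and 14 macrophage markers. Under the block Ctsl (-0.46, adjusted p = 0.0344) and Ctsc (-0.48, adjusted p = 0.021) passed the adjusted p in edgeR, under the fold threshold, as Ctsl (0.0263) and Scarb2 (0.0235) did in DESeq2. No log2 fold change of a called member changed sign under any of these alternatives. The cause of the changes was not tested. The limits are a single liver that leads 22 of the 33 members, a tissue of mixed cells, and counts of 11 to 29 for Ctsk.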
